A study of Homo sapiens with 6 samples.

Results

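The let-7 genes encode a family of microRNAs, and 9 probes of the 47319 on the arrays were annotated to 9 of them: MIRLET7A1, MIRLET7A2, MIRLET7C, MIRLET7D, MIRLET7E, MIRLET7F1, MIRLET7F2, MIRLET7G and MIRLET7I. They were taken by gene symbol alone, as every probe whose symbol begins with MIRLET7 and does not name a host gene, whether or not it gave signal. No probe was named for MIRLET7A3 or MIRLET7B in the annotation used here. In all, 560 probes were named for microRNA genes, of which the let-7 probes are 9. Total RNA came from MDA-MB-231, an established human breast cancer line of the basal-like kind, in 3 groups of 2 arrays. In DROSHA-sh the cells stably express a small hairpin RNA against DROSHA, in DICER1-sh one against DICER1, and in control the labels give the hairpin as control without saying whether a non-targeting hairpin was carried. The groups share the cell line and the culture medium, and no cells received a treatment. The labels number the arrays within a group but do not say whether they came from separate cultures, so each p-value reflects array-to-array spread, whose source may be technical. Whether each hairpin line is 1 clone is not given in the sources used here.

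A let-7 microRNA begins as a long primary transcript, from which the nuclear enzyme DROSHA, with its partner DGCR8, cuts out a hairpin. DICER1 then trims that hairpin in the cytoplasm to the mature microRNA, which is loaded on Argonaute proteins and represses messenger RNAs that pair with its seed. The family is known for restraining proliferation and as a tumour suppressor in breast and other cancers, and the RNA-binding proteins LIN28A and LIN28B are known to block its maturation. These arrays label RNA by the standard Illumina protocol, which primes from poly(A) tails, so mature let-7 is not what such a probe is built to read. The probe letters were not used here, and which part of a let-7 transcript each probe covers was not determined.

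The mature sequences show why the genes are read as one family: the seed, bases 2 to 8 counted from the 5′ end and set in capitals, is the same in all of them. The sequences are those of RefSeq, written 5′ to 3′, and let-7a and let-7f are each made from several genes. MIR98, a microRNA gene outside the MIRLET7 names, has the same seed and is shown last.
let-7a: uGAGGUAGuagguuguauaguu
let-7c: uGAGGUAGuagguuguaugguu
let-7d: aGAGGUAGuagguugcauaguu
let-7e: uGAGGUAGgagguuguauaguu
let-7f: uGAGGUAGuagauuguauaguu
let-7g: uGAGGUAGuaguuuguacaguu
let-7i: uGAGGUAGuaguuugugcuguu
miR-98: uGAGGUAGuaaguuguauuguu
The seed GAGGUAG was held by 14 of 2545 mature microRNA entries in the RefSeq table, or 0.55%. Over the 22 bases, let-7c, let-7e and let-7f each differ from let-7a at 1 base, let-7d, let-7g and miR-98 at 2, and let-7i at 4.

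The genes whose probes gave signal differ more outside the mature arm. The hairpins of the 4 that were above background on at least 2 arrays are shown with the mature 5p arm in capitals, from RefSeq on build GRCh38.p14. All 4 lie on the plus strand, MIRLET7A1 at chr9:94175957-94176036, MIRLET7F1 at chr9:94176347-94176433, MIRLET7D at chr9:94178834-94178920 and MIRLET7I at chr12:62603686-62603769.
MIRLET7A1: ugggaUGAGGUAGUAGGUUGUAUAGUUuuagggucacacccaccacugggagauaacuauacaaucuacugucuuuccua
MIRLET7F1: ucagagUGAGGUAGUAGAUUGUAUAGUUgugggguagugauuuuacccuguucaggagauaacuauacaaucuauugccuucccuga
MIRLET7D: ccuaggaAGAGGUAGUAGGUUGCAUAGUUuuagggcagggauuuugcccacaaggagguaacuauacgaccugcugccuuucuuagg
MIRLET7I: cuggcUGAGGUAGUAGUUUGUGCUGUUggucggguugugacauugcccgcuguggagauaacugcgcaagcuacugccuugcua
The first 3 sit together on chromosome 9, with 310 bases between MIRLET7A1 and MIRLET7F1 and 2400 between MIRLET7F1 and MIRLET7D, so that the cluster spans 2964 bases. Over the 9 genes with a probe, the 36 pairs of hairpins were 57.8% to 85.9% identical, with a median of 69.4%. The closest pair was MIRLET7A1 and MIRLET7F2, so a probe inside one hairpin could also bind the other's transcript. The letters GGAG, known as a binding motif of LIN28, were searched on the RNA strand between the 5p and 3p arms. They were present in 8 of the 8 let-7 genes that have a probe and both arms annotated, and absent from MIRLET7A3 and MIRLET7B, which have no named probe, so that 8 of 10 let-7 genes held them. Over all hairpins with both arms in the table the share was 60 of 739, or 8.12%. MIRLET7F2 has no annotated 3p arm and was not counted, and MIR98 did not hold the letters. A match describes the letters only.

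Mean bead intensities were background-corrected and quantile-normalized to a log2 level, and a probe was called above background on an array where its deposited detection p-value was below 0.05. By that rule 42.0% to 44.4% of all probes, but only 7.86% to 9.82% of the microRNA gene probes, were above background on an array. The lowest level above background was 5.63 to 5.75 (log2) on the 6 arrays. Of 5 markers of basal-like mesenchymal breast cancer lines, 5 were above background on all 6 arrays, among them VIM, whereas the luminal genes ESR1, PGR and FOXA1 and the melanocytic list (0 of 3) were not. Of 5 luminal markers, 2 were, KRT19 and ERBB3, and of 3 pluripotency markers 0 were. One of 4 leukocyte markers, CD14, was above background on all 6 arrays. The targeted genes matched the labels: DROSHA was at 9.00 and 8.98 (log2) on the DROSHA-sh arrays, against 11.58 and 10.91 on the control arrays. DICER1 was at 8.41 and 8.66 (log2) on the DICER1-sh arrays, against 10.55 and 9.36 on the control arrays. Chip position runs with the group, so position and group cannot be told apart.

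Detection of let-7 probes was most frequent in DROSHA-sh. MIRLET7A1, MIRLET7D, MIRLET7F1 and MIRLET7I had signal above background on each DROSHA-sh array, none of the 9 did so on both DICER1-sh arrays, and MIRLET7F1 did so on both control arrays. As shares these are 4 of 9 (44.4%) in DROSHA-sh, 0 of 9 in DICER1-sh and 1 of 9 (11.1%) in control. Over the 560 microRNA gene probes the shares were 6.96% in DROSHA-sh, 5.18% in DICER1-sh and 5.36% in control, and over all probes 39.1%, 38.1% and 38.7% in the same order of groups. Counted by array, 4 let-7 probes were above background on each DROSHA-sh array, 0 and 1 on the DICER1-sh arrays, and 2 on each control array. MIRLET7A1 and MIRLET7I exceeded background on the 2 DROSHA-sh arrays and on none of the other 4. With these included, 7 of the 560 microRNA gene probes (1.25%) and 0.203% of all probes did so. MIRLET7F1 was above background on the 2 DROSHA-sh and 2 control arrays and on neither DICER1-sh array. With MIRLET7F1 included, 2 of the 560 (0.357%) and 0.169% of all probes were so. No test was made of these shares, since probes are not replicates. The probes were dim: at a detection p-value below 0.01 the count on both arrays was 2 in DROSHA-sh, 0 in DICER1-sh and 0 in control.

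**Figure D1:**
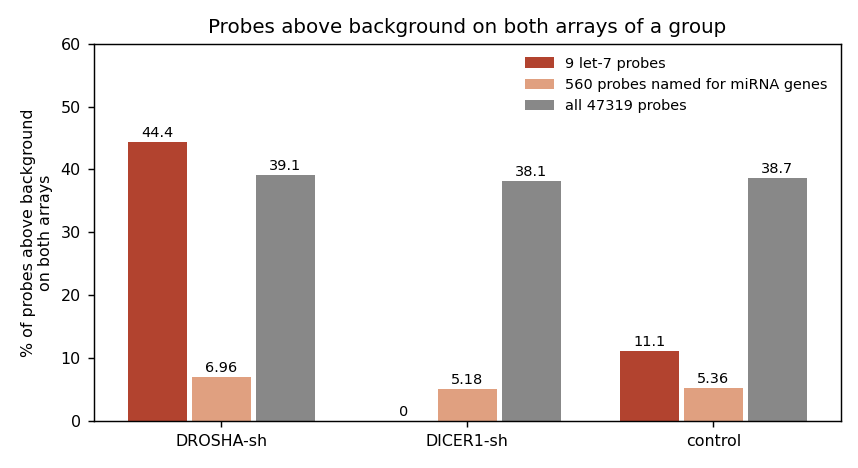
Bars give the percentage of probes above background (detection p-value below 0.05) on both arrays of a group, for the 9 let-7 probes, the 560 microRNA gene probes and all 47319 probes. The let-7 share was 44.4% in DROSHA-sh, 0 in DICER1-sh and 11.1% in control, whereas the share of all probes lay between 38.1% and 39.1%.

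MIRLET7A1 (ILMN_3311100), one of 3 genes that can give let-7a, had the widest difference of the 4 kept let-7 probes in DROSHA-sh against control. Its raw intensity was 368 and 291 on the DROSHA-sh arrays, 143 and 133 on the DICER1-sh arrays, and 157 and 115 on the control arrays. Its log2 level was 7.88 and 7.41 in DROSHA-sh, 5.24 and 5.04 in DICER1-sh, and 5.25 and 4.79 in control. Both DROSHA-sh arrays stood above all 4 others, and those 4 were not above background and overlapped each other. The log2 difference was 2.63 ± 0.31 (SE, 2 arrays per group) in DROSHA-sh against control, with an unadjusted p of 6.26e-05 and a Benjamini-Hochberg adjusted p of 0.346 in limma over 22091 probes. Since control was below background, the linear size is only a bound. With the background correction used here, at an offset of 16, DROSHA-sh was at least 3.89-fold higher than control. For each dim array the higher of its own value and the lowest level above background was taken. Such bounds, here and below, hold for that correction alone and do not allow for the SE. Other corrections can give a smaller difference. Against DICER1-sh the difference was 2.51 ± 0.31 (SE), with an adjusted p of 0.397 in limma and a bound of at least 3.85-fold higher. DICER1-sh against control differed by 0.12 ± 0.31 (SE) with an adjusted p of 0.971, and no fold is given because both were below background. The DROSHA-sh difference from control stayed between 2.39 and 2.86 when each array was left out in turn. It was 1.27 with no background correction and 1.82 with an offset of 50 in place of 16. With the deposited normalized values it was 3.53, where the floor of 16 stands for every DICER1-sh and control value, so its size depends on how background was removed.

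MIRLET7D (ILMN_3309739), the gene of let-7d, was above background in all 3 groups, on both DROSHA-sh arrays and on 1 array of each other group. Its raw intensity was 252 and 256 in DROSHA-sh, 148 and 175 in DICER1-sh, and 189 and 141 in control. Its log2 level was 6.93 and 7.07 in DROSHA-sh, 5.36 and 5.95 in DICER1-sh, and 5.86 and 5.21 in control. Both DROSHA-sh arrays were higher than all 4 others. The arrays with signal outside DROSHA-sh were the second of DICER1-sh and the first of control, and these 2 groups overlapped. The log2 difference was 1.46 ± 0.35 (SE) in DROSHA-sh against control and 1.35 ± 0.35 (SE) against DICER1-sh. Each of those groups was measured above background on 1 of 2 arrays, so no exact fold is given. Neither passed in limma, with adjusted p of 0.856 and 1.00. In DICER1-sh against control the difference was 0.12. Leaving out an array in turn gave 1.14 to 1.79 for DROSHA-sh against control, no background correction gave 0.62, and the deposited normalized values with a floor of 16 gave 2.13.

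MIRLET7I (ILMN_3309204), the gene of let-7i on chromosome 12, had the same set of arrays above background as MIRLET7A1. Its raw intensity was 208 and 177 in DROSHA-sh, 126 and 116 in DICER1-sh, and 137 and 123 in control. Its log2 level was 6.31 and 5.87 in DROSHA-sh, 4.93 and 4.79 in DICER1-sh, and 4.92 and 4.89 in control. Only the DROSHA-sh arrays were above background, the second of them narrowly, with a detection p-value of 0.0325 against 0.00519 for the first. The log2 difference was 1.18 ± 0.28 (SE) in DROSHA-sh against control, with an adjusted p of 0.856 in limma, and the bound was at least 1.32-fold higher. Against DICER1-sh it was 1.23, with a bound of at least 1.30-fold higher. DICER1-sh against control differed by -0.05. The DROSHA-sh difference from control was 0.54 with no background correction. It was 1.69 with the deposited normalized values, where the floor of 16 stands for every DICER1-sh and control value.

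MIRLET7F1 (ILMN_3309423), which gives let-7f and lies between MIRLET7A1 and MIRLET7D in the cluster, had another pattern. Its raw intensity was 209 and 180 in DROSHA-sh, 144 and 143 in DICER1-sh, and 186 and 199 in control. Its log2 level was 6.34 and 5.94 in DROSHA-sh, 5.27 and 5.23 in DICER1-sh, and 5.79 and 6.55 in control. DROSHA-sh and control overlapped and were above background on all 4 arrays, while both DICER1-sh arrays were lower and not above background. The log2 difference was -0.03 ± 0.34 (SE) in DROSHA-sh against control, with an adjusted p of 0.980 in limma. In DICER1-sh against control it was -0.92 ± 0.34 (SE), with an unadjusted p of 0.0306 and an adjusted p of 0.969 in limma, and control was at least 1.38-fold higher. That difference rested unevenly on the control arrays: it was -1.30 without the first and -0.54 without the second. It was -0.37 with no background correction and -0.57 with an offset of 50. With the deposited normalized values it was -1.78, where the floor of 16 stands for both DICER1-sh values. DROSHA-sh was at least 1.35-fold higher than DICER1-sh, with a log2 difference of 0.89 ± 0.34 (SE).

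**Figure D2:**
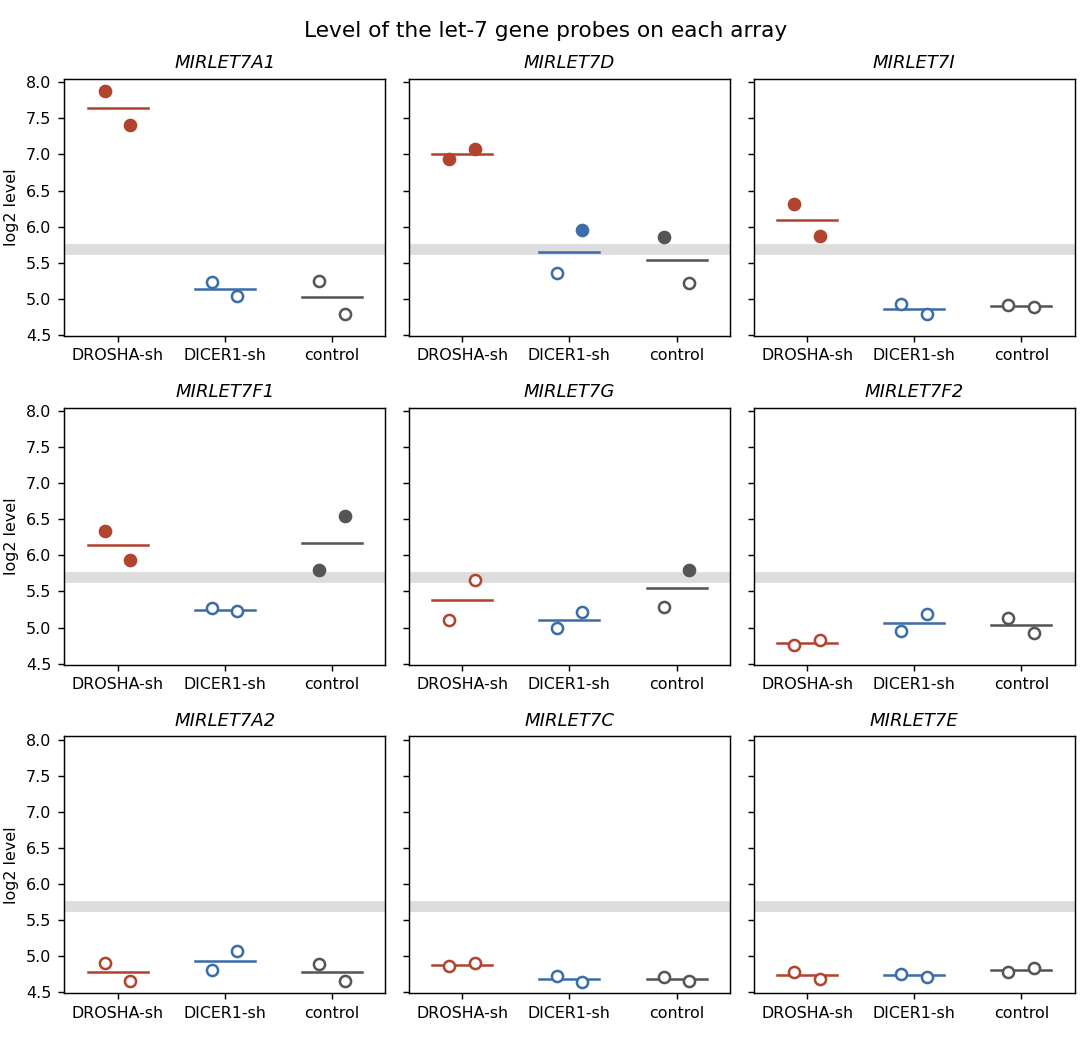
Each panel gives the background-corrected, quantile-normalized log2 level of a let-7 probe on the 6 arrays, with the group mean as a line. Filled points are above background (detection p-value below 0.05), open points are not, and the grey band marks the lowest level above background, 5.63 to 5.75. The DROSHA-sh points of MIRLET7A1, MIRLET7D and MIRLET7I lie above all points of the other groups, and those of MIRLET7F1 overlap control.

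The other 5 probes gave no measurable level. MIRLET7A2, MIRLET7C, MIRLET7E and MIRLET7F2 were above background on 0 arrays, with log2 levels of 4.65 to 5.07, 4.65 to 4.91, 4.69 to 4.84 and 4.76 to 5.19. MIRLET7G was above background on the second control array alone, with a detection p-value of 0.0429. Its raw intensity was 146 and 167 in DROSHA-sh, 131 and 142 in DICER1-sh, and 159 and 165 in control, so that the DROSHA-sh values enclosed those of control. In all, 1 of 30 values of these 5 probes was above background, so a difference between groups was not detectable in them at this signal. MIRLET7A2 would give the same mature let-7a as MIRLET7A1, and MIRLET7F2 the same let-7f as MIRLET7F1.

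DROSHA-sh had the highest group mean for 3 of the 4 measurable probes, and for MIRLET7F1 it lay beside control. MIRLET7A1 and MIRLET7I were kept through their DROSHA-sh arrays alone, so for them the filter itself favours a high DROSHA-sh mean. The share of all kept probes with their highest mean in DROSHA-sh was not determined. For MIRLET7A1 the means were 7.65 ± 0.33, 5.14 ± 0.14 and 5.02 ± 0.32 (log2, SD, n = 2) in DROSHA-sh, DICER1-sh and control, and only DROSHA-sh stood apart. For MIRLET7D the means were 7.00 ± 0.10, 5.65 ± 0.42 and 5.54 ± 0.46 in that order of groups, and for MIRLET7I 6.09 ± 0.31, 4.86 ± 0.09 and 4.91 ± 0.02, with DICER1-sh and control within their spread for both genes. For MIRLET7F1 they were 6.14 ± 0.28, 5.25 ± 0.02 and 6.17 ± 0.54, with DROSHA-sh and control within their spread. In bulk RNA, more transcript in each cell and more cells with the transcript cannot be told apart.

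No let-7 probe passed an adjusted p of 0.05 in limma in any of the 3 comparisons, and neither did any other of the 22091 probes tested. At an unadjusted p of 0.05, 3 of the 4 kept let-7 probes were higher in DROSHA-sh than in control, where 335 of all kept probes were higher (1.52%), and 0 of the 4 were lower, where 287 were (1.3%). Of the kept microRNA gene probes, the 4 let-7 probes included, 10 of 65 were higher, and 3 of these are the let-7 probes. In DROSHA-sh against DICER1-sh 4 of the 4 were higher, against 290 of all kept probes (1.31%), and 0 lower, against 204 (0.923%). In DICER1-sh against control 1 of the 4, MIRLET7F1, was lower, against 188 of all kept probes (0.851%), and 0 were higher, against 196 (0.887%). These 4 probes were kept because they gave signal on at least 2 arrays, which for MIRLET7A1 and MIRLET7I were the DROSHA-sh arrays alone, so their counts cannot stand for the family. Each pair of comparisons shares the arrays of 1 group, so their results are not independent.

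With all 9 let-7 probes taken in, the medians lay near 0 in both comparisons with control. The median log2 difference was 0.01 in DROSHA-sh against control, 0.00 in DICER1-sh against control and 0.27 in DROSHA-sh against DICER1-sh, beside medians of 0.00, 0.01 and -0.00 over all probes on the array. These let-7 medians are the values of MIRLET7A2, MIRLET7C and MIRLET7G, in that order. Each was not above background in either group compared, so the medians carry no measured level and do not describe the family. Both DROSHA-sh arrays were above both control arrays for 4 of the 9 (MIRLET7A1, MIRLET7C, MIRLET7D and MIRLET7I), a pattern shown by 18.1% of all probes, and below them for 2 (MIRLET7E and MIRLET7F2), as were 17.5% of all probes. Both DICER1-sh arrays were below both control arrays for 3 of the 9 (MIRLET7E, MIRLET7F1 and MIRLET7G), against 13.3% of all probes, and above them for 0, against 14.4%. Both DROSHA-sh arrays were above both DICER1-sh arrays for 5 of the 9 (MIRLET7A1, MIRLET7C, MIRLET7D, MIRLET7F1 and MIRLET7I), against 16.6% of all probes, and below them for 1 (MIRLET7F2), against 17.5%. MIRLET7C, MIRLET7E and MIRLET7F2 were above background on 0 arrays and MIRLET7G on 1 of 6, so their order between groups carries no measured level.

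**Figure D3:**
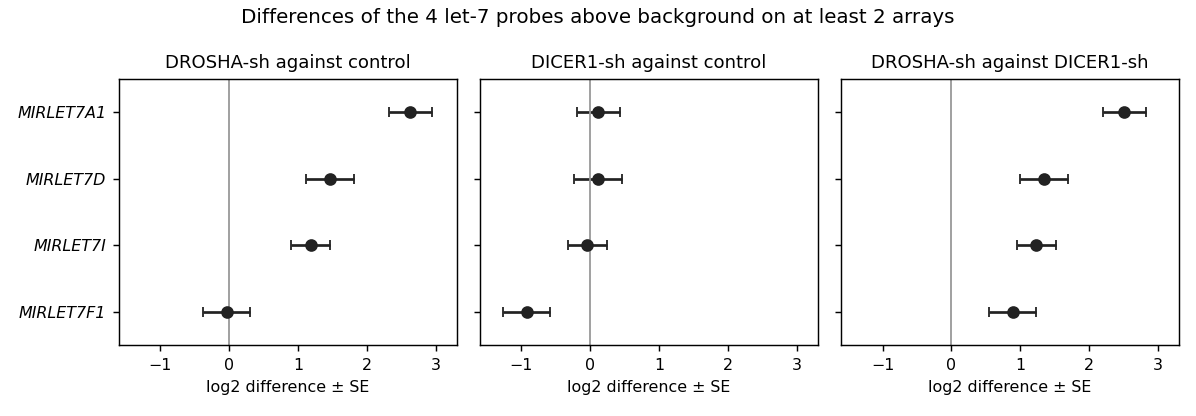
Points give the log2 difference of each of the 4 kept let-7 probes with its standard error (limma, 2 arrays per group), in the 3 comparisons. MIRLET7A1, MIRLET7D and MIRLET7I lie at 1.18 to 2.63 in DROSHA-sh against control and within 0.12 of 0 in DICER1-sh against control, and MIRLET7F1 lies at -0.03 and -0.92.

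MIR98, which carries the let-7 seed and lies within the gene HUWE1, was above background on all 6 arrays and did not separate the groups. Its log2 level was 7.93 and 7.79 in DROSHA-sh, 8.44 and 7.36 in DICER1-sh, and 6.68 and 8.25 in control. The groups overlapped, and the difference was 0.40 ± 0.57 (SE) in DROSHA-sh against control. The control arrays differed from each other by more than any group means did.

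Of the let-7 genes, 5 lie inside a longer gene that has a probe of its own, and the levels of those transcripts could be set beside the hairpin genes. MIR100HG, the long noncoding host of MIRLET7A2, was at 11.66 and 11.85 (log2) in DROSHA-sh, 9.84 and 9.75 in DICER1-sh, and 9.93 and 9.41 in control. Both DROSHA-sh arrays stood above all others, with a difference of 2.09 ± 0.29 (SE) from control and an adjusted p of 0.584 in limma. It was 1.96 against DICER1-sh and 0.13 in DICER1-sh against control. MIR99AHG, the host of MIRLET7C, has 3 probes, of which 1 was kept, and the others were not above background on 2 arrays. The kept probe was at 6.58 and 6.90 in DROSHA-sh, 6.20 and 5.16 in DICER1-sh, and 5.16 and 5.52 in control. It exceeded background on the 2 DROSHA-sh arrays and the first DICER1-sh array. By this probe DROSHA-sh was at least 2.07-fold higher than control, with an adjusted p of 0.856 in limma. The log2 difference was 0.57 with no background correction and 2.15 with the deposited normalized values at a floor of 16. The protein-coding hosts differed less in DROSHA-sh against control: SPACA6, which holds MIRLET7E, by 0.40, WDR82, which holds MIRLET7G, by 0.00, and HUWE1, which holds MIRLET7F2 and MIR98, by -0.04. In DICER1-sh against control these 3 differed by 0.39, 0.09 and 0.12. The 2 hosts with the wider differences thus hold let-7 genes whose own probes were below background on all 6 arrays. No probe was named for MIRLET7A1HG, which holds the chromosome 9 cluster, or for MIRLET7IHG.

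**Figure D4:**
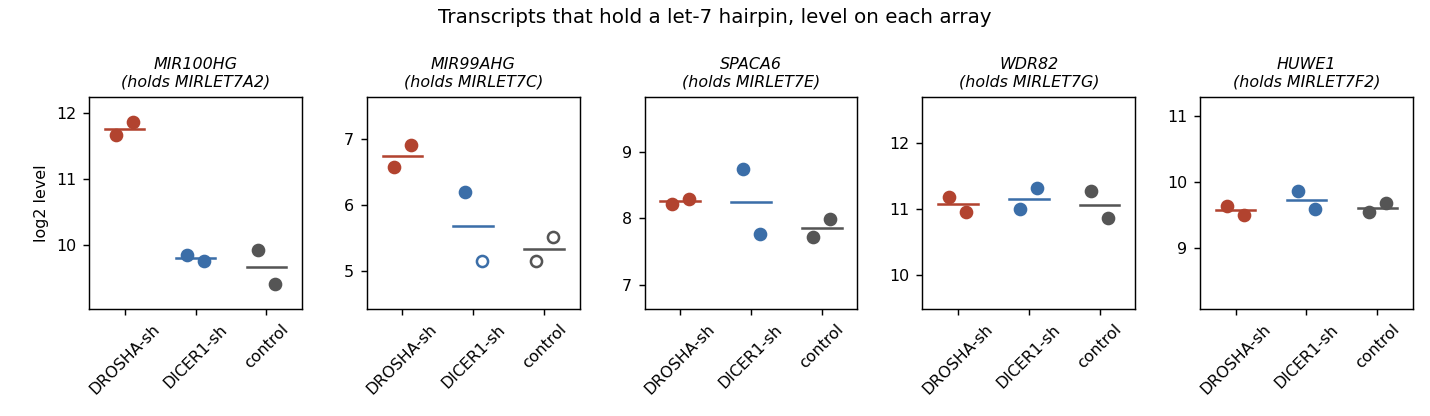
Panels give the log2 level on each of the 6 arrays of the 5 host genes with a probe, with group means as lines, filled points above background and open points not. MIR99AHG is shown by the 1 of its 3 probes that was kept. MIR100HG was at 11.66 and 11.85 in DROSHA-sh, against 9.93 and 9.41 in control, while WDR82 and HUWE1 differed by 0.00 and -0.04.

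MicroRNA genes that neighbour let-7 genes were measurable in part. Of 7 with a probe, MIR98, MIR100 and MIR125B2 were above background on at least 2 arrays. So were 65 of the 560 microRNA gene probes and 22091 of all 47319 probes. Of the neighbours kept, 0 reached an unadjusted p of 0.05 in any comparison in limma. In DROSHA-sh against control, 1.52% of all kept probes did so as higher and 1.3% as lower. For MIR100, within MIR100HG, the bound was at least 1.08-fold higher for DROSHA-sh against control. MIR100 was kept through its DROSHA-sh arrays alone, narrowly, with detection p-values of 0.0390 and 0.0442. For it the filter itself favours a higher level in DROSHA-sh. MIR125B2, within MIR99AHG, differed by -0.07 (log2). MIR99A, MIR99B, MIR125A and MIR125B1 were above background on 0 arrays.

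Of 28 genes listed for let-7 processing and its regulators, 28 had a probe and 24 were kept, each read by its probe with the highest mean. LIN28A, LIN28B, the ubiquitin ligase TRIM71, itself a known let-7 target, and the Argonaute gene AGO4 were above background on 0 arrays. The LIN28A level was 4.63 to 4.95 (log2) and that of LIN28B 4.68 to 5.05 over the 6 arrays. At an unadjusted p of 0.05, 2 kept genes were higher in DROSHA-sh than in control, beside 1.52% of all kept probes, and 1 was lower, beside 1.3%. The lower gene was the hairpin's own target DROSHA, with a log2 difference of -2.25 ± 0.35 (SE). DGCR8, whose product works with DROSHA and whose messenger RNA is a known DROSHA substrate, was at 9.86 and 9.88 in DROSHA-sh, 9.02 and 8.46 in DICER1-sh, and 8.58 and 8.87 in control, with a difference of 1.15 ± 0.30 (SE) from control. ZC3H12A, which encodes a ribonuclease known to cut microRNA precursors, was at 7.33 and 7.49 in DROSHA-sh, 7.56 and 6.76 in DICER1-sh, and 6.01 and 6.09 in control. Its difference from control was 1.36 ± 0.33 (SE) in DROSHA-sh and 1.11 in DICER1-sh. In DICER1-sh against control 1 gene was higher, ZC3H12A, beside 0.887% of all kept probes. There 1 was lower, beside 0.851%, and it was again the hairpin's target, DICER1, at -1.42 ± 0.41 (SE). In DROSHA-sh against DICER1-sh 2 were higher, DICER1 by 1.78 and DGCR8 by 1.13, beside 1.31% of all kept probes, and 1 lower, DROSHA by -2.12, beside 0.923%. The number past an adjusted p of 0.05 was 0 in each comparison in limma. The medians over the list's probes were -0.18, -0.25 and 0.06 in DROSHA-sh against control, DICER1-sh against control and DROSHA-sh against DICER1-sh.

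Set against each other, the 4 measurable let-7 probes were alike to different degrees. Across the 6 arrays, Pearson's r of the log2 levels was 0.987 for MIRLET7A1 with MIRLET7I, 0.932 for MIRLET7A1 with MIRLET7D and 0.879 for MIRLET7D with MIRLET7I. MIRLET7F1 gave 0.353 with MIRLET7A1, 0.196 with MIRLET7D and 0.470 with MIRLET7I, although its hairpin is 310 bases from that of MIRLET7A1. MIRLET7A1 and MIRLET7I were kept only through the 2 DROSHA-sh arrays, where they are high, and their other 4 values are not above background, so the filter itself sets a high r between them. The values describe 6 arrays in 3 groups and no more. Among 6953 named probes that vary across the arrays, those most like MIRLET7A1 were MIRLET7I and MIR181B1 (both r = 0.987), MIR100HG (0.985), MIR24-1 (0.983) and MIR21 (0.982). For MIRLET7I the nearest were MIRLET7A1 (0.987), MIR24-1 (0.985), MIR181B1 (0.972), MIR185 (0.967) and EGR1 (0.964). MIRLET7D was most like ABCA1 (0.987), STX11 (0.983), HEY1 (0.983), PTPRR (0.980) and RECK (0.972). MIRLET7F1 was most like GUCA1A (0.959), FMNL1 (0.938), SMIM10L2A and UBL7 (both 0.926) and OR7E85BP (0.925). The lists for MIRLET7A1 and MIRLET7I hold other microRNA genes, and those for MIRLET7D and MIRLET7F1 hold none. The share of microRNA genes among the 6953 probes was not determined. For MIRLET7A1 and MIRLET7I the filter also favours neighbours that are high in DROSHA-sh, so what their lists hold is a description only.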

How the data were processed

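RNA of 6 arrays was analysed, 2 for each of DROSHA-sh, DICER1-sh and control, grouped by the labels. Per the file headers, the deposited table gives the mean bead intensity of every probe on each array with its detection p-value. A further table that the authors deposited holds normalized intensity values, and its method of normalization is not given in the sources used here. The submitters' processing notes name GenomeStudio. Intensities were corrected with neqc of limma 3.58.1 (R 4.3.3; normexp through the detection p-values, offset 16), quantile-normalized and put on the log2 scale. Probes with a detection p-value below 0.05 on at least 2 arrays were tested, 22091 of 47319, each probe for itself. All 3 groups were fitted together (lmFit, eBayes) with 3 residual and 4.09 prior degrees of freedom and Benjamini-Hochberg adjustment, and the fit was tested on simulated data. The number of arrays limits the precision. Platform annotation gave 30112 probes 1 symbol, 8 several and 17199 none. Symbols of 30073 were updated by Entrez number through RefSeq for GRCh38.p14, which also gave the sequences and coordinates of the hairpins. The array's own probe positions were not used here. All members of the family are reported, and outside it the genes named are the listed genes past an unadjusted p of 0.05, those not above background, the host genes, and the 5 probes most like each measurable let-7 probe by Pearson's r. The members and the gene lists were chosen with earlier results of these data known. Alternatives covered background correction, offset, scaling, the deposited normalized values, filters, probe choice, array weights, replicate blocks and leaving out each array.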

Additional observations from a re-analysis of the deposited data

How the results depend on the processing

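The log2 differences of MIRLET7A1, MIRLET7D and MIRLET7I in DROSHA-sh against control and against DICER1-sh kept their direction under every alternative that tested them, as did MIRLET7F1 in both comparisons with DICER1-sh. Filters, probe choice, array weights and replicate blocks use the same log2 levels and left each difference unchanged. Leaving out an array of the group not compared could not move it either. Only background correction, offset, scaling, the deposited normalized values and leaving out an array of a compared group could. With the crossed pairing below set aside, no let-7 probe passed an adjusted p of 0.05, and over the alternatives the limma adjusted p of MIRLET7A1 in DROSHA-sh against control ran between 0.195 and 1.00. Differences near 0 changed sign: MIRLET7F1 in DROSHA-sh against control was 0.00065 with median scaling and -0.41 to 0.35 on leaving out each array. In DICER1-sh against control, leaving out each array gave -0.11 to 0.35 for MIRLET7A1, -0.21 to 0.44 for MIRLET7D and -0.11 to 0.021 for MIRLET7I. The number of probes past the threshold was 0 in each comparison, and 1 (MIR21) in DROSHA-sh against DICER1-sh with the brightest probe per gene and 2 with array weights. A detection p-value below 0.01 left 2 let-7 probes detected on both arrays in DROSHA-sh and 0 in control, removed MIRLET7I from the tests, and a filter for signal on all 6 arrays left no let-7 probe. Same-numbered arrays did not deviate in the same direction. The correlation of their deviations was -0.65 for DICER1-sh with control, which is an opposite deviation. It was -0.03 for DROSHA-sh with control and 0.02 for DROSHA-sh with DICER1-sh. The SD of the log2 difference between the arrays of a group was 0.306 in DROSHA-sh, 0.704 in DICER1-sh and 0.777 in control. The fit shares 1 estimate of spread per probe over the groups, so its SE does not show this inequality. The fit with the replicate number as a block called 0 probes in each comparison, and the adjusted p of MIRLET7A1 in DROSHA-sh against control was 0.948. A crossed pairing of the replicate numbers, chosen after seeing the data, called 6 probes in DROSHA-sh against control and 6 in DROSHA-sh against DICER1-sh, 1 of each being MIRLET7A1. The cause of these changes was not tested. Signal over background limits 5 of the 9 probes, which gave 1 value of 30 above it.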
